A study of Rattus norvegicus with 6 samples.

Results

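The WNT genes described here are the ligands, receptors, antagonists, feedback inhibitors and nuclear effectors of WNT signalling in cultured rat oligodendrocyte precursor cells (OPCs). They were taken from the deposited gene table by name. Every gene whose symbol begins with Wnt, Fzd, Sfrp, Dkk or Nkd followed by a digit entered, which gave 39 genes. A further 17 genes were listed by symbol, of which 15 were found, while Axin1 and Znrf3 are not analysed here. In all, 54 of the 32883 genes of the table were members, 39 of them had enough reads to be tested, and 15 did not.

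Poly-A RNA was sequenced from 6 libraries, 3 of OPCs given DMSO, the solvent, and 3 of OPCs given ZJU-37, an inhibitor of the kinase RIPK1, at 5 µM. The cells of both groups came from cerebral cortices of newborn Sprague Dawley rats (postnatal day 0 in the labels), were shaken off mixed glial cultures and were not sorted. The labels give 36 h of treatment for both groups, and the methods text gives a shorter time for the same libraries. The sources call the libraries biological repeats in the methods text and plate wells elsewhere, so p-values measure the spread between these libraries, which may be technical.

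WNT ligands are secreted lipid-modified proteins that bind frizzled receptors together with the co-receptors Lrp5 and Lrp6. In the canonical branch this stops the destruction complex, which contains Apc and Axin proteins, from degrading β-catenin, and β-catenin then joins TCF and LEF factors on DNA. Genes such as Axin2, Nkd1, Rnf43 and Lef1 are widely used targets of this branch, and several of them feed back to restrain it. Other branches signal through Ror receptors or planar cell polarity proteins without β-catenin. In the oligodendrocyte lineage, strong β-catenin signalling is known to hold precursors back from differentiation, Tcf7l2 is a marker of cells that have started to differentiate, and OPC-derived Wnt7a and Wnt7b act on blood vessels.

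Library totals lay between 13935865 and 24097927 counts, so that 3 counts, taken as the limit of detection, equalled 0.124 to 0.219 CPM (read counts divided by the library size in units of 1e6 reads, after TMM, a trimmed-mean normalisation). This limit covers counting error only. Of 8 OPC markers 7 were found, and their summed level was 3857 to 4476 CPM with DMSO and 4411 to 6075 CPM with ZJU-37. Among them Pdgfra, Cspg4, Olig1 and Ptprz1 rose, while Sox10 and Gpr17, a marker of precursors about to differentiate, fell. The 8 oligodendrocyte markers summed to 11416 to 22744 CPM with DMSO and 4817 to 10068 CPM with ZJU-37, so the cultures held differentiated cells in both groups, and fewer of them or less RNA per cell cannot be told apart in bulk RNA. Microglial markers summed to 1627 to 2780 CPM and 1195 to 2517 CPM, and astrocyte markers to 1026 to 1655 CPM and 904 to 1358 CPM, with the groups overlapping in both cases. Within pairs of the same replicate number, however, the ZJU-37 sum was below the DMSO sum every time, at 0.734, 0.905 and 0.854 of it for microglia and at 0.764, 0.881 and 0.821 for astrocytes. Without the block 1 of 8 astrocyte markers (Aldoc) and 0 of 8 microglial markers fell in edgeR, against 5.58% of all tested genes. With the replicate number as a term in the fit 4 and 2 did, against 15.9% of all tested genes. With 8 genes, the microglial count is near the background. The astrocyte marker S100b rose in that fit (log2 fold change 0.26, adjusted p 0.00870 in edgeR). The part of astrocytes and microglia in the WNT results that rest on the block was not tested. Fibroblast and meningeal markers summed to at most 149 CPM and neuronal markers to 777 to 1179 CPM over both groups. The endothelial list summed to 15.9 to 18.7 CPM with DMSO and 11.2 to 14.9 CPM with ZJU-37, without overlap. Cldn5 was at 0 in all libraries. For these lists too the ZJU-37 sum was below the DMSO sum in every pair. The ratios were 0.537, 0.851 and 0.756 for fibroblast and meningeal, 0.973, 0.899 and 0.931 for neuronal and 0.706, 0.835 and 0.794 for endothelial markers. The oligodendrocyte sum fell likewise (0.383, 0.619 and 0.422), while the OPC sum rose in every pair (1.36, 1.13 and 1.27).

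Several WNT genes rose with ZJU-37, and few fell. Lef1, a nuclear partner of β-catenin, rose 4.76-fold, the secreted antagonist Sfrp4 rose 2.87-fold and the ligand Wnt7b rose 2.20-fold. In the edgeR test (quasi-likelihood, p-values adjusted by Benjamini-Hochberg over 14670 genes), 7 of the 39 tested members (17.9%) were higher with ZJU-37 at an adjusted p under 0.05, against 9.43% of all tested genes. The members higher were Lef1, Sfrp4, Wnt7b, Nkd1, Fzd4, Ror2 and Lrp5. The members lower were Rnf43 and Sfrp2, 2 of 39 (5.13%), against 5.58% of all tested genes, which is close to the background. Rnf43 entered the test through the DMSO libraries, where it is higher, since all 3 of them but only 2 of the ZJU-37 libraries reached the level asked by the filter on low counts, so its call adds no support to that count. The median log2 fold change was 0.10 over the tested members and -0.03 over all tested genes.

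Replicate numbers marked pairs of libraries that varied together across genes. When the replicate number entered the edgeR fit as a block, 10 members were higher (25.6%, against 16.2% of all tested genes) and 6 were lower (15.4%, against 15.9%). All 9 members called without the block were called with it. The 7 added were Axin2, Wnt7a and Fzd1, higher, and Frzb, Fzd7, Fzd10 and Wnt5a, lower. The libraries of the groups did not overlap in 16 of the 39 tested members (41.0%), against 35.2% of all tested genes. Rnf43 and Wnt4 are among these 16. Both met the filter on low counts in every library of the DMSO group only, where they are higher, so they add no support to this count. Leaving out 1 library at a time left 4 to 6 members higher, with 4 without DMSO replicate 2 and 4 without DMSO replicate 3, and 0 or 1 lower, with 0 without DMSO replicate 1, 2 or 3 and without ZJU-37 replicate 3.

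**Figure D1:**
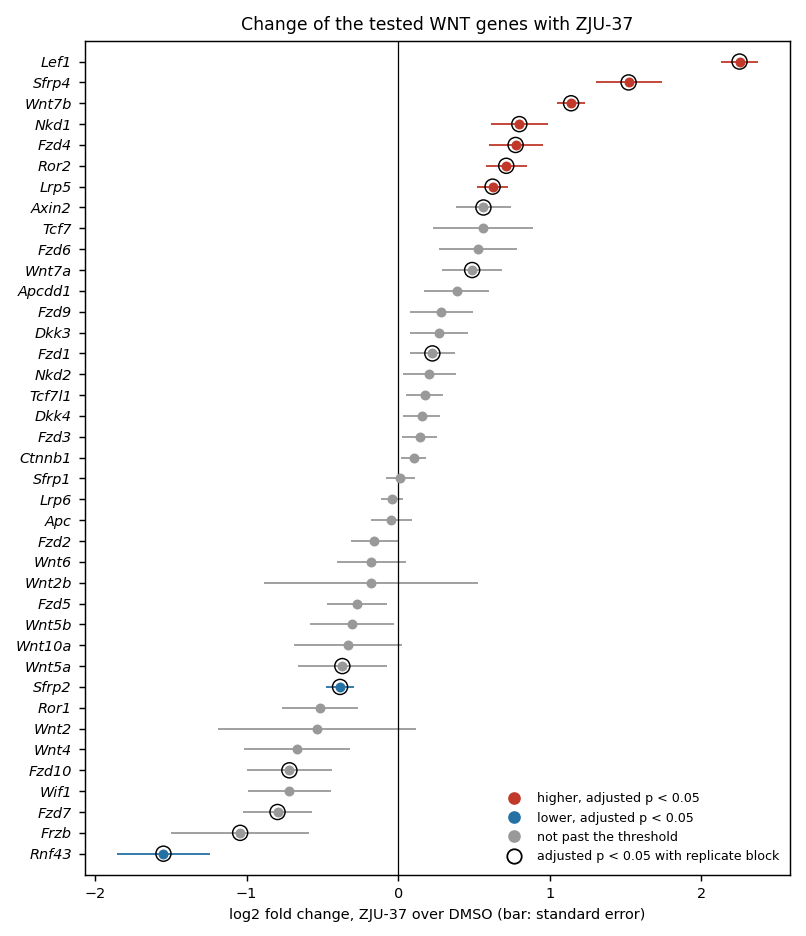
Log2 fold change of ZJU-37 over DMSO for the 39 tested WNT genes, ordered by size, with the standard error as a bar (3 libraries per group). Red and blue points passed an adjusted p of 0.05 in the edgeR fit without a block, black rings mark genes that passed with the replicate block, and Lef1 stands at the top at 2.25 with Rnf43 at the bottom at -1.55.

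**Figure D2:**
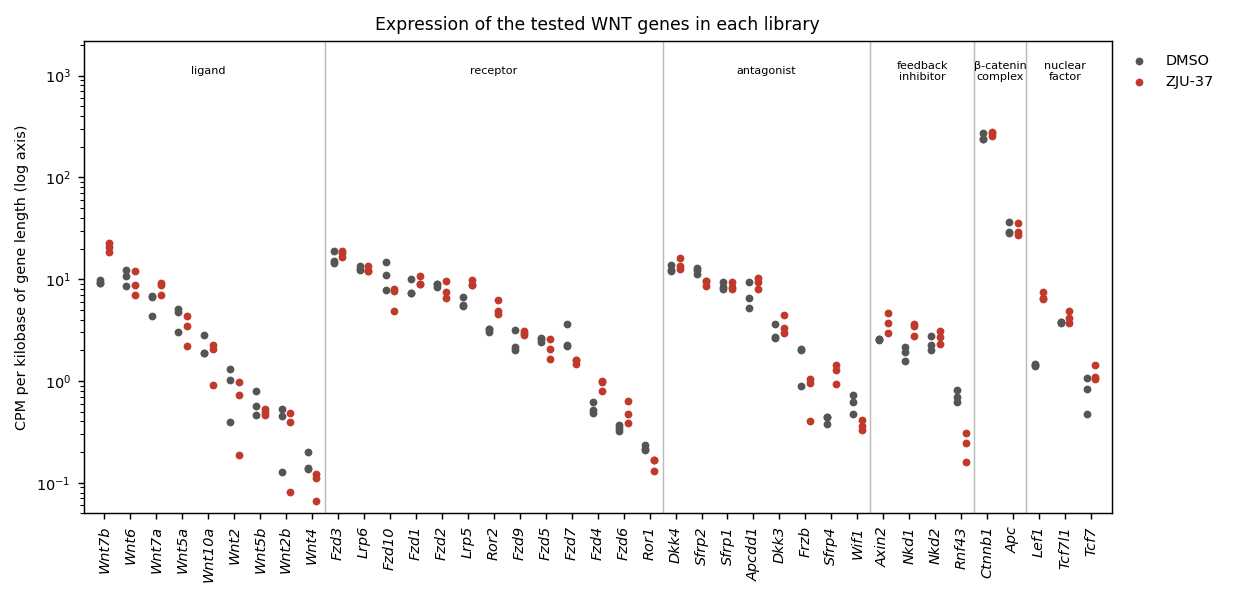
Level of the 39 tested WNT genes in each library, in CPM per kilobase of gene length on a log axis, grouped by role and ordered within each role by mean level. Grey points are the 3 DMSO libraries and red points the 3 ZJU-37 libraries, and Ctnnb1, at a mean of 259.5 CPM per kilobase, lies above all other members.

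Among the ligands, the data showed a set led by Wnt7b, Wnt6, Wnt7a and Wnt5a, with Wnt7b rising and taking a larger share. Of the 19 Wnt genes 9 were tested, 1 (11.1%) was higher and 0 were lower, against 9.43% and 5.58% of all tested genes. With the block 2 (22.2%) were higher and 1 (11.1%) was lower, against 16.2% and 15.9%, so these counts are near the background. Wnt7b (ENSRNOG00000015750, chr7:126420656-126465723, minus strand, in the coordinates of the deposited table, whose genome build is not given in the sources used here) stood at 35.4, 35.5 and 37.7 CPM in the DMSO libraries and at 88.5, 71.4 and 79.7 CPM in the ZJU-37 libraries. The groups did not overlap, and the lowest ZJU-37 library was far above the highest DMSO library. Wnt7b thus had a log2 fold change of 1.14 (SE 0.09), with an adjusted p of 5.34e-04 in the edgeR test, and the call held without each library in turn. Wnt7a, its closest relative, was at 21.6, 13.7 and 21.0 CPM with DMSO and at 29.1, 21.8 and 27.9 CPM with ZJU-37. These groups did not overlap either, and replicate 2 was the lowest library of both groups. The log2 fold change of Wnt7a was 0.49 (SE 0.20), with an adjusted p of 0.164 without and 0.00229 with the replicate block in edgeR.

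Wnt5a, the best-known ligand of the branches without β-catenin, was at 25.5, 15.2 and 23.9 CPM with DMSO and at 21.8, 11.1 and 17.2 CPM with ZJU-37. The groups overlapped, but each ZJU-37 library was below the DMSO library of its number. Its log2 fold change was -0.37 (SE 0.29), with an adjusted p of 0.480 without and 0.0126 with the block in edgeR. Wnt6 was at 17.6, 25.1 and 22 CPM with DMSO and at 14.4, 25.0 and 18.0 CPM with ZJU-37. Replicate 2 was the highest and replicate 1 the lowest in both groups, an order shared by the summed microglial markers, whose part in the Wnt6 level was not tested. The Wnt6 difference was -0.18 (SE 0.23) on the log2 scale, with an adjusted p of 0.670 in edgeR.

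Per kilobase of gene length, the 19 ligands together stood at 35.6 ± 2.43 CPM with DMSO and at 45.6 ± 1.68 CPM with ZJU-37 (SD, n = 3 each). Wnt7b was 26.2 ± 1.21% of that sum with DMSO and 45.0 ± 3.16% with ZJU-37. Wnt6 went from 29.7 ± 6.55% to 20.6 ± 6.56%, shares that overlapped between the groups, and Wnt5a from 12 ± 2.60% to 7.27 ± 2.11%. Wnt7a held 16.6 ± 3.12% and 18.3 ± 2.13%. Thus Wnt7b ranked behind Wnt6 in the DMSO mean, within the spread of Wnt6, and ahead of every other ligand in each ZJU-37 library. These shares are descriptions and were not tested.

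The other ligands were low. Wnt10a averaged 1.97 CPM per kilobase over all libraries and had a log2 difference of -0.33 (adjusted p 0.610 in edgeR). Wnt2 was at 1.75, 1.36 and 0.531 CPM with DMSO and at 1.3, 0.970 and 0.248 CPM with ZJU-37, with replicate 3 lowest in both groups. Where Wnt2b and St7l overlap, their reads cannot be told apart, since the library kit was not stated to keep strand. Of the 10 untested ligands, Wnt3a, the canonical ligand most used in culture, had 0 counts in all libraries. The highest count of any untested member was 15, for Wnt16 in a DMSO library, and 6 untested members had at most 3 counts in every library.

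Receptors showed a rise of Fzd4, Lrp5 and Ror2 on a background of abundant receptors that did not pass the test. Of 14 receptors 13 were tested, 3 (23.1%) were higher and 0 lower, against 9.43% and 5.58% of all tested genes, and with the block 4 (30.8%) were higher and 2 (15.4%) lower, against 16.2% and 15.9%. Lrp5 (ENSRNOG00000015911, chr1:218816841-218920094, minus strand), a co-receptor of the canonical branch, was at 27.5, 28.4 and 34.1 CPM with DMSO and at 49.4, 44.7 and 44.7 CPM with ZJU-37. The groups did not overlap, and the log2 fold change was 0.62 (SE 0.10) with an adjusted p of 0.00800 in edgeR. The call held without each library in turn. Its relative Lrp6 was at 75.7, 68.8 and 71.3 CPM with DMSO and at 75.1, 67.2 and 67.4 CPM with ZJU-37. The groups of Lrp6 overlapped, with a log2 difference of -0.04 (SE 0.07) and an adjusted p of 0.756 in edgeR.

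Ror2 (ENSRNOG00000053232, chr17:11953552-12134386, plus strand), a receptor tyrosine kinase that binds Wnt5a, was at 12.9, 12.8 and 12 CPM with DMSO and at 24.4, 19.2 and 18.1 CPM with ZJU-37. The lowest ZJU-37 library was above the highest DMSO library. Its log2 fold change was 0.71 (SE 0.13) with an adjusted p of 0.0143 in edgeR, and the call was lost without DMSO replicate 2 (adjusted p 0.0534) and without DMSO replicate 3 (adjusted p 0.0583). Ror1, the other member of its family, was low, at 1.15 ± 0.06 CPM with DMSO and 0.804 ± 0.108 CPM with ZJU-37 (SD, n = 3 each), with an adjusted p of 0.239 in edgeR.

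Fzd4 (ENSRNOG00000016848, chr1:153589471-153598375, plus strand), a frizzled known for its role in retinal vessels, was at 3.29, 4.24 and 3.56 CPM with DMSO and at 5.46, 6.74 and 6.78 CPM with ZJU-37. The groups did not overlap, and the log2 fold change was 0.77 (SE 0.18) with an adjusted p of 0.0304 in edgeR. The call was lost without DMSO replicate 1, 2 or 3 and without ZJU-37 replicate 2 or 3 (adjusted p 0.0545 to 0.106). Fzd10 was at 47.3, 35.0 and 24.8 CPM with DMSO and at 24.2, 25.4 and 15.5 CPM with ZJU-37. The groups overlapped, and the order of the libraries within each group was that of the summed oligodendrocyte markers (replicates 1, 2 and 3 from high to low with DMSO, and 2, 1 and 3 with ZJU-37), whose part was not tested. The log2 fold change of Fzd10 was -0.72 (SE 0.28), with an adjusted p of 0.151 without and 6.73e-04 with the block in edgeR.

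Fzd7 was at 6.28, 6.38 and 10.1 CPM with DMSO and at 4.49, 4.12 and 4.55 CPM with ZJU-37. DMSO replicate 3 stood above the other DMSO libraries, and all DMSO libraries stood above the ZJU-37 libraries. Its log2 fold change was -0.80 (SE 0.22), with an adjusted p of 0.0605 without and 0.00875 with the block in edgeR. Fzd1 was at 31.9, 32.3 and 43.7 CPM with DMSO and at 39.6, 39.2 and 47.5 CPM with ZJU-37. DMSO replicate 3 overlapped the ZJU-37 libraries, and replicate 3 was the highest of both groups. The log2 difference of Fzd1 was 0.23 (SE 0.15), with an adjusted p of 0.382 without and 0.0261 with the block in edgeR.

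Fzd3, which works in axon guidance and planar polarity, was the most abundant frizzled per kilobase, with 30.4 ± 1.46% of the 10 frizzled genes' sum with DMSO and 35.5 ± 2.52% with ZJU-37 (SD, n = 3 each). Its own log2 difference was 0.14 (SE 0.12, adjusted p 0.492 in edgeR). The frizzled sum itself was 52.9 ± 5.08 CPM per kilobase with DMSO and 50.1 ± 1.15 with ZJU-37, groups that overlapped. Within it Fzd10 went from 20.9 ± 5.07% to 13.6 ± 3.65% and Fzd1 from 15.6 ± 3.69% to 19.1 ± 1.67%, as untested descriptions. In the DMSO libraries Fzd10 and Fzd2 did not differ beyond their spread in level per kilobase, and in the ZJU-37 libraries Fzd1, Fzd2 and Fzd10 followed Fzd3.

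**Figure D3:**
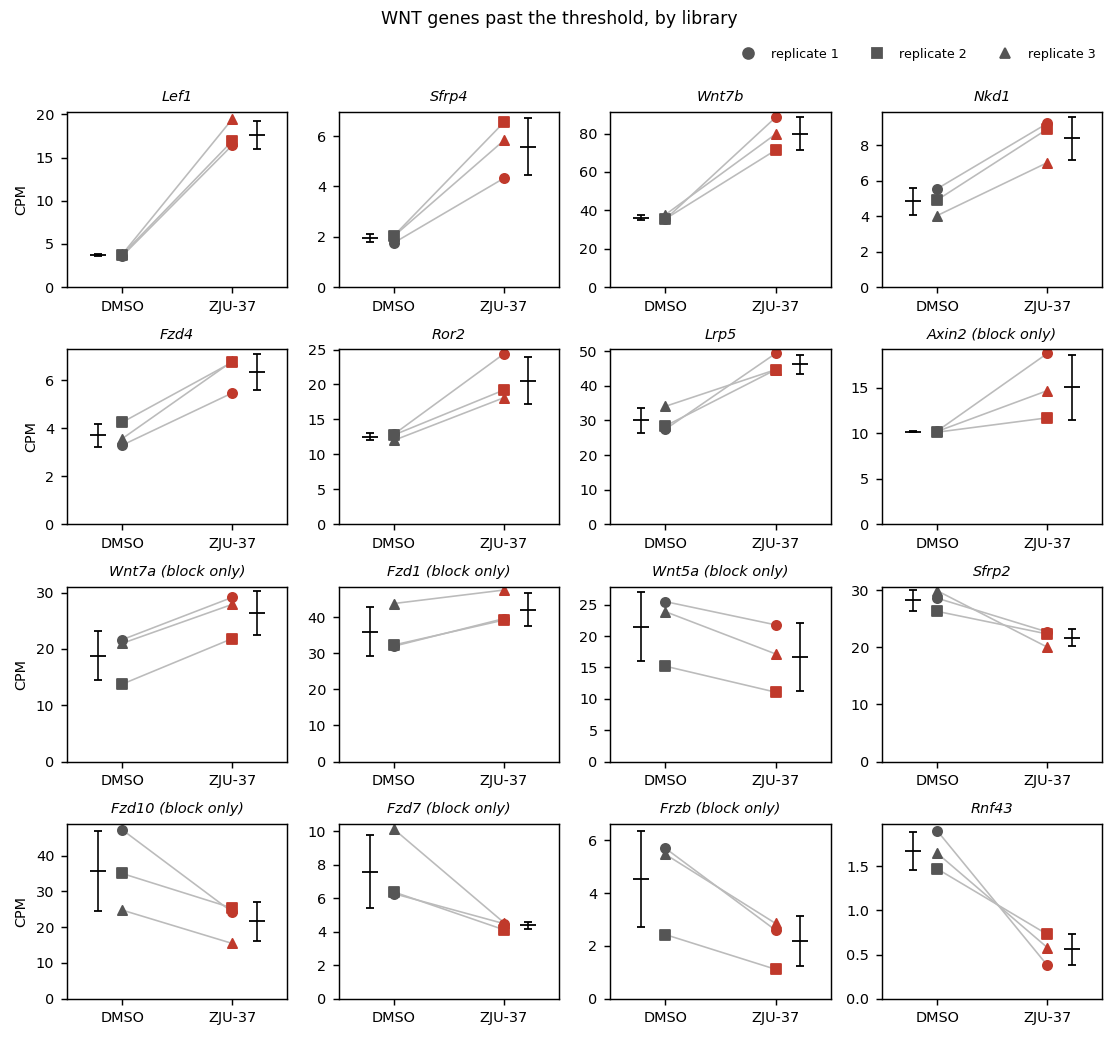
CPM of the 16 WNT genes past an adjusted p of 0.05 in edgeR without or with the replicate block, by library, ordered by log2 fold change. Lines join libraries of the same replicate number, and dashes with bars give the mean and SD of each group (n = 3). Every line rises in the genes down to Fzd1 and falls from Wnt5a on.

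Of the secreted antagonists, Sfrp4 rose and Sfrp2 fell. Of 12 antagonists 8 were tested, 1 (12.5%) was higher and 1 (12.5%) lower, against 9.43% and 5.58% of all tested genes. With the block 1 (12.5%) was higher and 2 (25.0%) were lower, against 16.2% and 15.9%, and with 8 genes these counts are near the background. Sfrp4 (ENSRNOG00000054957, chr17:47297489-47394328, minus strand), a secreted frizzled-related protein that binds ligands away from receptors, was at 1.75, 2.03 and 2.02 CPM with DMSO and at 4.33, 6.55 and 5.83 CPM with ZJU-37. The groups did not overlap. Its log2 fold change was 1.52 (SE 0.22) with an adjusted p of 0.00475 in edgeR, and the call held without each library in turn. Sfrp4 overlaps Nme8 in the table, which had 4 counts over all libraries.

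Sfrp2 (ENSRNOG00000009465, chr2:182723854-182731764, plus strand), of the same family, was at 28.6, 26.3 and 29.9 CPM with DMSO and at 22.7, 22.4 and 20.0 CPM with ZJU-37. The groups did not overlap, but the change was small, with a log2 fold change of -0.38 (SE 0.09) and an adjusted p of 0.0322 in edgeR. The call was lost whichever of the 6 libraries was left out (adjusted p 0.0515 to 0.138) and with scaling to library size alone (0.0593). Frzb, another secreted frizzled-related protein, was at 5.70, 2.43 and 5.47 CPM with DMSO and at 2.60, 1.12 and 2.85 CPM with ZJU-37. Replicate 2 was lowest in both groups, as it was for the summed astrocyte markers and for the summed neuronal markers. The part of either was not tested. The groups of Frzb overlapped, and the log2 fold change was -1.04 (SE 0.45), with an adjusted p of 0.191 without and 0.00352 with the block in edgeR.

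Dkk4, which blocks Lrp5 and Lrp6, had the highest mean level per kilobase of the antagonists (13.4 CPM per kilobase over all libraries). It was at 20.5, 18.2 and 17.9 CPM with DMSO and at 24.2, 19.9 and 18.9 CPM with ZJU-37, groups that overlapped, with an adjusted p of 0.477 in edgeR. Sfrp1 was at 33.2 ± 2.97 CPM with DMSO and 33.6 ± 2.76 CPM with ZJU-37 (SD, n = 3 each), with an adjusted p of 0.942 in edgeR. Dkk1, the best-studied Dickkopf antagonist, had 0 counts in all libraries, and Notum, an enzyme that strips the lipid from WNT proteins, had at most 9 counts in any library.

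Of the feedback inhibitors, Nkd1 rose, Rnf43 was lower on few reads, and Axin2 passed with the block but not in the fit of all 6 libraries without it. All 4 were tested, 1 (25.0%) was higher and 1 (25.0%) lower, against 9.43% and 5.58% of all tested genes, shares that rest on single genes. Nkd1 (ENSRNOG00000014293, chr19:19436333-19509087, minus strand), which binds Dishevelled, was at 5.55, 4.91 and 4.03 CPM with DMSO and at 9.25, 8.92 and 7.03 CPM with ZJU-37. The groups did not overlap, and replicate 3 was the lowest of both. For Nkd1 the log2 fold change was 0.80 (SE 0.19) with an adjusted p of 0.0321 in edgeR, and the call was lost without DMSO replicate 2 or 3 and without ZJU-37 replicate 1 or 2 (adjusted p 0.0694 to 0.0970). Nkd2 was at 9.40 ± 1.55 CPM with DMSO and 10.8 ± 1.64 CPM with ZJU-37 (SD, n = 3 each), with an adjusted p of 0.513 in edgeR.

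Axin2, a scaffold of the destruction complex and the most general target of the canonical branch, was at 10.2, 10.1 and 10.2 CPM with DMSO and at 18.8, 11.7 and 14.7 CPM with ZJU-37. The DMSO libraries were nearly equal, the ZJU-37 libraries spread widely, and all of the latter were above the former. The log2 fold change was 0.56 (SE 0.18), with an adjusted p of 0.0855 without and 0.0143 with the block in edgeR. Without ZJU-37 replicate 2, the lowest of its group, Axin2 passed without the block (log2 fold change 0.74, adjusted p 0.0304). That was 1 of 6 fits with a library left out, and Axin2 did not pass in the others (adjusted p 0.139 to 0.200 in edgeR). Its log2 fold change was lowest, at 0.39, without ZJU-37 replicate 1. Rnf43 (ENSRNOG00000007606, chr10:74959285-75028951, plus strand), a ubiquitin ligase that removes frizzled receptors from the cell surface, had 26, 26 and 31 counts with DMSO and 7, 15 and 14 counts with ZJU-37, or 1.90, 1.47 and 1.65 CPM against 0.378, 0.727 and 0.579 CPM. Few reads carry this difference, but the groups did not overlap. Its log2 fold change was -1.55 (SE 0.31) with an adjusted p of 0.0176 in edgeR, and the call was lost without DMSO replicate 1, 2 or 3 and without ZJU-37 replicate 3 (adjusted p 0.0507 to 0.0683). Because it met the filter on low counts in every library of the DMSO group only, the group where it is higher, these values are given as a description.

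The promoters of Nkd1, Axin2 and Rnf43, with that of Lef1, are shown because TCF and LEF factors bind a short core on DNA and these genes are widely used canonical targets. The sequences are the 250 bases before the RefSeq start of each gene in the GRCr8 assembly, 5′ to 3′ on the strand of the gene, and capitals mark the core CTTTGAA or CTTTGAT, searched on both strands. They lie at chr2:222340463-222340712 (plus strand, Lef1), chr19:34722847-34723096 (minus strand, Nkd1), chr10:94398535-94398784 (plus strand, Axin2) and chr10:72963116-72963365 (plus strand, Rnf43).
Lef1: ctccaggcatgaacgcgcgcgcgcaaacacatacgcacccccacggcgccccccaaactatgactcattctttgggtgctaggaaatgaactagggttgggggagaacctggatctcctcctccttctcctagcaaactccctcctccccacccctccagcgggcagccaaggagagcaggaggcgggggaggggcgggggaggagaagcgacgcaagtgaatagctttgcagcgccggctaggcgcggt
Nkd1: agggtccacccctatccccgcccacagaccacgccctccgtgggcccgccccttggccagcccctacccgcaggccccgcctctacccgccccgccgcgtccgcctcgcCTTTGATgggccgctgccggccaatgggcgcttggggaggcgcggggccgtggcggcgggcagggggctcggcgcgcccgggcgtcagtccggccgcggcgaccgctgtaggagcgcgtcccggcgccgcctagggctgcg
Axin2: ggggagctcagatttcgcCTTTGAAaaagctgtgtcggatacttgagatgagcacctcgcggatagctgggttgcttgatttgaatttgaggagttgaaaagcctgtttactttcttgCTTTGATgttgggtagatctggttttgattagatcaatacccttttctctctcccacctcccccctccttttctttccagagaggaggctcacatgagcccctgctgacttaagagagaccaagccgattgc
Rnf43: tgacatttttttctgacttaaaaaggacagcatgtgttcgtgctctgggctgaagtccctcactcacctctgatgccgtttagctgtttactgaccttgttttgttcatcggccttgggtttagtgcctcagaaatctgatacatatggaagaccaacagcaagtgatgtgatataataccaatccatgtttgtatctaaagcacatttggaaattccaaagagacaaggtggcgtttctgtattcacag
Axin2 held the core 2 times, with its first letter 232 and 132 bases before the start, and Nkd1 held it at 141 bases before the start. The windows of Lef1 and Rnf43 held none, which says only that these letters are not there. Over the full window, which runs on to 50 bases after the start, 6 of the 40 members with a RefSeq window (15%) and 2921 of all 33469 windows (8.73%) held the core. It was held by 1 of 4 windows of members called higher and by 0 of 2 of members called lower. A match is a description of the letters and not a binding site.

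β-catenin and Apc were abundant and did not pass the test. Ctnnb1, which encodes β-catenin, was at 658, 571 and 576 CPM with DMSO and at 670, 606 and 660 CPM with ZJU-37. Its groups overlapped, with a log2 difference of 0.10 (SE 0.08) and an adjusted p of 0.499 in edgeR. Apc was at 324, 253 and 258 CPM with DMSO and at 313, 242 and 255 CPM with ZJU-37, with replicate 1 highest in both groups. Its log2 difference was -0.05 (SE 0.14), with an adjusted p of 0.860 in edgeR. Transcript levels give no measure of β-catenin protein or of its place in the cell.

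Among the nuclear factors, Lef1 rose by more than any other tested WNT gene. Lef1 (ENSRNOG00000010121, chr2:236233239-236345056, plus strand) was at 3.58, 3.73 and 3.77 CPM in the DMSO libraries and at 16.4, 16.9 and 19.5 CPM in the ZJU-37 libraries. The DMSO libraries lay close together and far below every ZJU-37 library. The log2 fold change was 2.25 (SE 0.12) with an adjusted p of 2.70e-04 in edgeR, and without each library in turn it stayed between 2.20 and 2.32 with an adjusted p of at most 0.00311. Tcf7l1, which mostly acts as a repressor, was at 14.0, 14.1 and 14.2 CPM with DMSO and at 18.3, 14.0 and 15.5 CPM with ZJU-37, groups that overlapped, with an adjusted p of 0.410 in edgeR. Tcf7 was low, at 1.23 ± 0.46 CPM with DMSO and 1.84 ± 0.33 CPM with ZJU-37 (SD, n = 3 each), with an adjusted p of 0.332 in edgeR.

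The remaining gene of the TCF and LEF family, Tcf7l2, is outside the members and moved the other way. It was at 109, 89.0 and 78.5 CPM with DMSO and at 22.3, 24.4 and 20.3 CPM with ZJU-37, with no overlap. Its log2 fold change was -2.05 (SE 0.14), with an adjusted p of 3.8e-04 in edgeR. The order of its libraries within each group was that of the summed oligodendrocyte markers, whose part in the fall was not tested. Per kilobase of gene length, Lef1 made up 4.47 ± 0.66% of the 4 factors' sum with DMSO and 36.6 ± 3.75% with ZJU-37 (SD, n = 3 each). Tcf7l2 made up 81.2 ± 3.43% and 34.3 ± 3.41%. In the ZJU-37 libraries the levels of Lef1 and Tcf7l2 per kilobase, 6.83 ± 0.63 and 6.40 ± 0.59 CPM, thus lay within each other's spread, while the sum of the family went from 32.5 ± 4.13 to 18.7 ± 0.37 CPM per kilobase. These shares and sums were not tested.

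**Figure D4:**
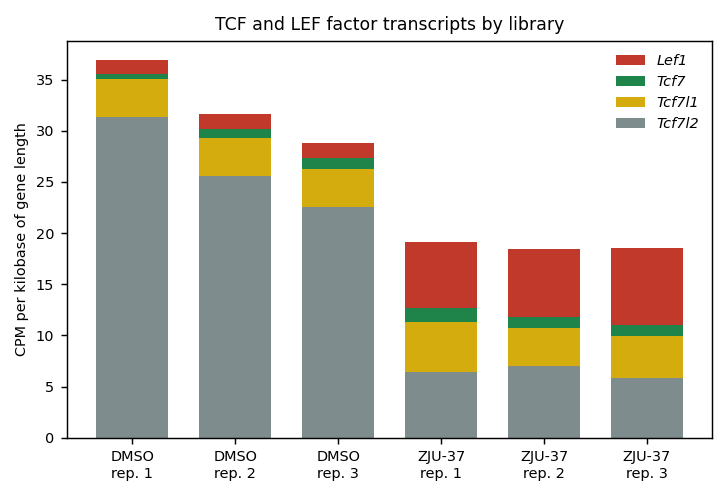
Stacked levels of the 4 TCF and LEF factor genes in each of the 6 libraries, in CPM per kilobase of gene length. Each bar is a library, with Tcf7l2 in grey, Tcf7l1 in yellow, Tcf7 in green and Lef1 in red, and the grey part shrinks from a mean of 26.5 with DMSO to 6.40 with ZJU-37 while the red part grows from 1.43 to 6.83.

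Beyond the members, 76 other genes of WNT signalling were listed and found, and 69 were tested. Of these 5 (7.25%) were higher and 6 (8.70%) lower, against 9.43% and 5.58% of all tested genes, and with the block 12 (17.4%) were higher and 12 (17.4%) lower, against 16.2% and 15.9%. Their median log2 fold change was -0.03. The highest rise was that of Ccnd1, the cyclin of early G1, which is a canonical target but answers to many growth signals. Ccnd1 was at 541, 602 and 556 CPM with DMSO and at 1301, 1576 and 1519 CPM with ZJU-37, a log2 fold change of 1.37 (SE 0.10) with an adjusted p of 4.1e-04 in edgeR. The corepressor Tle2 (log2 fold change 0.59), the polarity cadherin Celsr2 (0.50), the β-catenin cofactor Bcl9 (0.40) and the kinase Csnk1e (0.30) were also higher.

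Besides Tcf7l2, the pathway genes lower with ZJU-37 were the receptor Tnfrsf19 (log2 fold change -1.07), the polarity gene Prickle1 (-0.99), the R-spondin receptor Lgr4 (-0.97), Dact3, a Dishevelled-binding regulator (-0.62), and Porcn, which attaches the lipid to WNT proteins (-0.42). Lgr4 was at 62.2, 51.9 and 49.2 CPM with DMSO and at 28.2, 29.7 and 25.5 CPM with ZJU-37, with an adjusted p of 0.00186 in edgeR. Lgr4 was thus lower in every ZJU-37 library than in any DMSO library. Rnf43, which acts at the same step of receptor turnover, entered the test through the group where it is higher. Its values therefore add no support to those of Lgr4. The call of Porcn was lost whichever library was left out (adjusted p up to 0.112) and with scaling to library size alone (0.0570). Among the genes that were higher, Bcl9 was lost without DMSO replicate 2 or 3 or ZJU-37 replicate 1 or 3 (up to 0.140), Celsr2 (up to 0.0750) and Csnk1e (up to 0.102) without DMSO replicate 2 or 3 or ZJU-37 replicate 3, and Tle2 without DMSO replicate 3 (0.0505). Counting all 69 tested pathway genes, including any gained, 2 were higher without DMSO replicate 2, 3 without DMSO replicate 3, 2 without ZJU-37 replicate 3 and 4 to 6 without each of the other libraries.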

How the data were processed

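The authors deposited raw read counts per gene for 6 libraries, made with featureCounts 1.5.0; the submitters' processing notes also name HISAT2 2.0.5 and StringTie 1.3.3b. The authors' FPKM values in the same deposited table were not used, nor were the columns of the authors' DESeq2 comparison (group means, fold changes and p-values). The genome build and any strand setting are not given in the sources used here.

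Genes were filtered with filterByExpr (CPM cutoff 0.543, minimum count 10, minimum total 15), normalised by TMM and compared between groups by the quasi-likelihood test of edgeR 4.0.16 (glmQLFTest after a robust glmQLFit; R 4.3.3), without covariates, with Benjamini-Hochberg adjustment over 14670 genes. Each standard error was the size of the log2 fold change over the square root of F. The script was tested on simulated data. CPM per kilobase used the gene length of the table. Same-numbered libraries, numbered in the labels, deviated together from their group means across genes (r = 0.394, 0.312 and 0.329, against -0.271 to -0.0116 between other numbers), so the replicate number was fitted as a block as an alternative. Other alternatives were DESeq2 1.42.0, other scalings and filters, and leaving out each library. No libraries were duplicates.

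The members and lists were chosen with earlier results of these data known. The genes named were members past the threshold in either edgeR fit, the 2 most abundant per kilobase in each role and pathway genes past the threshold. Other members were named after their values were seen. Promoter windows came from RefSeq (GRCr8), and 14 members had none there, among them Wnt7b, Sfrp4 and Lrp5.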

Additional observations from a re-analysis of the deposited data

How the results depend on the processing

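With DESeq2 size factors, no filter on low counts or DESeq2 itself, the counts of WNT genes higher and lower and of other pathway genes stayed within 1.5 times those reported, and DESeq2 gave 7 members higher and 3 lower. The number of members lower moved from 2 to 6 with the replicate block, to 1 with scaling to library size alone, to 1 with at least 10 counts required in every library, which leaves Rnf43 untested, and to between 0 and 1 when each library was left out. The number of members higher was between 4 and 6 with each library left out. Of the other pathway genes, 12 were higher and 12 lower with the replicate block, and between 2 and 6 were higher with each library left out. Over all genes, 2201 passed the threshold, 4705 with the replicate block and between 1306 and 1927 with each library left out. The replicate block reversed no direction among the members. Leaving out each library was followed for the genes named by the rule, and it turned the sign of 3 of them that did not pass the test, with log2 differences between -0.15 and 0.076 for Apc, -0.078 and 0.016 for Lrp6, and -0.39 and 0.0039 for Wnt6. The fits with a library left out had fewer samples. The cause of the other changes was not tested. Rnf43, Wnt4, Tcf7, Ror1, Wnt2 and Wnt2b were among the tested members with few reads, and 15 members had too few for the test. Whether depth or low expression set this was not tested.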

Other observations

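With the replicate block, 13 pathway genes outside the members passed an adjusted p of 0.05 in edgeR that did not pass without it. Over all tested genes, 2201 passed without and 4705 with the block. With the block 17.4% of the tested pathway genes were higher and 17.4% lower, against 16.2% and 15.9% of all tested genes. The pathway counts are thus near the background, and the genes named here were chosen after their values were seen. Apc2, a relative of Apc abundant in the nervous system, was at 454, 372 and 389 CPM with DMSO and at 354, 242 and 290 CPM with ZJU-37, with no overlap and a log2 fold change of -0.46 (SE 0.15, adjusted p 0.0967 without and 3.0e-04 with the block). Tpbg, a membrane glycoprotein that modifies WNT signalling, was at 18.7, 21.9 and 30.6 CPM with DMSO and at 30.0, 34.4 and 38.7 CPM with ZJU-37. The groups of Tpbg overlapped, and its log2 fold change was 0.53 (SE 0.19, adjusted p 0.125 without and 0.00104 with the block).

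Among the members with too few reads for the test, Wnt16 had its 3 ZJU-37 libraries (0.324, 0.242 and 0.248 CPM) below its 3 DMSO libraries (1.10, 0.452 and 0.531 CPM). These values are close to the limit of detection, and no fold change is given.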
